A study of Mus musculus with 16 samples.

Results

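The effect of deleting Tcf21 in cardiac fibroblasts of hearts infused with angiotensin II and phenylephrine was compared, gene by gene, with the effect of the same deletion in uninjured hearts. In each setting the effect of deletion was the mean log2 value of the loss libraries minus that of the controls, and the effect without infusion was subtracted from the effect with it. A positive difference therefore means that deletion raised the gene more, or lowered it less, in infused hearts. Of 16538 genes listed in both loss tables, 14130 had a mean of at least 10 normalized counts in each. Of these, 176 were set aside because their infused control mean lay over 8-fold away from those of both other tables of the series, which lay within 2-fold of each other. The remaining 13954 genes were tested in 11 of the 16 libraries of the series. The effects differed in 17 of them, which included Comp and Tspan3 with a negative difference and Lypd1 and Mgll with a positive one.

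All libraries were cardiac fibroblasts sorted by flow cytometry from mice of 8 to 12 weeks. The infused loss group (Tcf21-MerCreMer:Tcf21-fl, 2 libraries) and the infused control group (Tcf21-MerCreMer, 3 libraries) received tamoxifen and then angiotensin II with phenylephrine for 1 week. The uninjured loss group (Tcf21-MerCreMer:Tcf21-fl, 3 libraries) and the uninjured control group (Tcf21-MerCreMer, 3 libraries) received tamoxifen alone, and their cells were collected 2 weeks later. Every mouse also carried a Rosa26-loxP-STOP-loxP cassette with enhanced green fluorescent protein, by which the cells were sorted. The Cre is driven by Tcf21 and is present in the controls as well, so both the deletion and the sorting reporter are limited to cells that use Tcf21. Whether each library is a mouse of its own is not given in the labels, and each p-value therefore rests on the scatter among libraries alone, part of which may be technical.

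TCF21 is a basic helix-loop-helix transcription factor that pairs with E proteins, binds E-box sequences, and is needed for the formation of cardiac fibroblasts in the embryo. It remains on in resting fibroblasts of the adult heart. Angiotensin II raises blood pressure and acts on fibroblasts through its type 1 receptor, and phenylephrine is an alpha-1 adrenergic agonist. Infused together they bring resting fibroblasts to divide, to lay down matrix and in part to become contractile myofibroblasts.

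The targeted gene was lower in every loss library of both settings. Tcf21 (chromosome 10, 22817263 to 22820143, GRCm38) held 258 and 185 normalized counts in the infused loss libraries, against 2814, 1802 and 1509.8 in the infused controls. The uninjured loss libraries held 1244, 1254 and 1718, against 7825, 8081 and 7507 in the uninjured controls. The log2 effect was -3.17 with infusion and -2.49 without, and the difference of -0.68 (95% interval -1.37 to 0.02) did not pass the test (limma adjusted p = 0.447). The 2 tables were normalized separately, with totals of 27814940 to 29753206 per infused library and 37746463 to 38970531 per uninjured library, so levels are compared only within a setting. All 12 fibroblast markers were tested, and Col1a1, Dcn, Pdgfra and the other members together summed to 3132510.3 to 3794477 per infused library and 4114262 to 4720739.9 per uninjured library. Gsn carried most of the sum in every uninjured library. Members moved apart among the infused controls, where Gsn held 604113, 238214 and 118572, Pdgfra 26502, 18519 and 14013, and Col1a1 593275, 614754 and 672282. The sum therefore does not show that single markers were even. The uninjured loss libraries held 1.02%, 0.573% and 0.437% of tested genes at 0, against 0.10% to 0.11% in the uninjured controls, while the infused libraries held 0.0573% to 0.193%. The part of these extra zeros in the differences below was not tested.

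The test of the difference called 17 of 13954 genes (0.122%) at a limma adjusted p below 0.05, of which 6 were positive (0.043%) and 11 negative (0.0788%). At an unadjusted p below 0.05 it held 1616 genes (11.6%), 807 positive (5.78%) and 809 negative (5.8%). Without 1 library at a time the count lay between 8 and 43. It was 11, 8 and 9 without uninjured controls 1, 2 and 3, and 43 without infused loss library 1. Tested within its own setting, deletion changed 135 of 14799 genes (0.912%) with infusion and 557 of 15544 (3.58%) without. Among the 13954 genes with a difference, these counts were 119 (0.853%) with infusion and 522 (3.74%) without. The infused count was 34 and 32 without infused loss libraries 1 and 2 and 48 without infused control 2. The uninjured count was 100, 95 and 88 without uninjured controls 1, 2 and 3, and 875 without uninjured loss library 1.

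Most genes that passed in either setting alone had the same sign of effect in the other. Of the 119 genes that passed with infusion, 109 had the same sign without it, and over the 119 the median absolute log2 effect was 1.95 with infusion and 1.11 without. Of the 522 that passed without infusion, 439 had the same sign with it, and over the 522 the median absolute effect was 0.32 with infusion and 0.66 without. Each set was chosen for a large effect in the setting that named it, so the larger median there is no test. All 43 genes that passed in both settings had the same sign, and 1 of them, Tspan3, was among the 17. Across all 13954 genes, which are not independent replicates, 60.8% had the same sign and the effects correlated with Pearson's r of 0.40 and Spearman's rho of 0.28. The effects come from separate libraries, with a standard deviation over genes of 0.54 with infusion and 0.59 without, and the median standard error of a difference was 0.24.

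**Figure D1:**
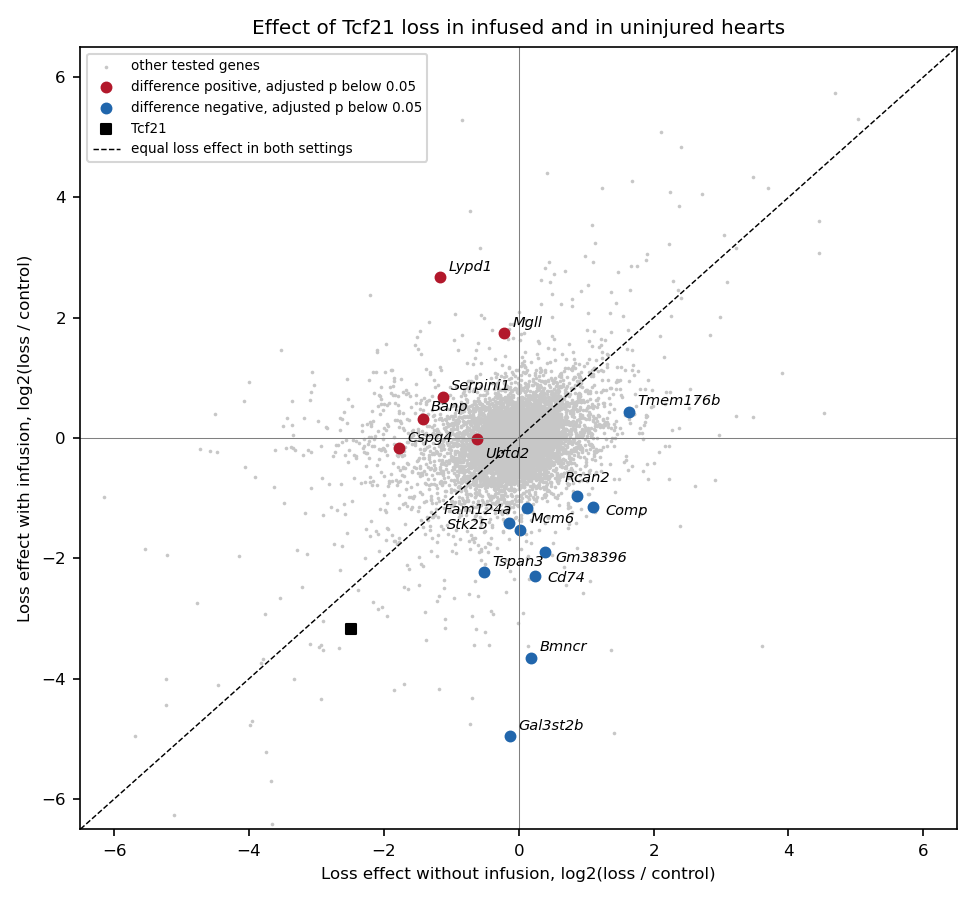
Log2 effect of Tcf21 deletion with infusion (vertical axis) against that without infusion (horizontal axis), 1 point per tested gene, with the 17 genes whose effects differed in red (positive difference) and blue (negative difference) and Tcf21 as a black square. Of the 17, 11 lie in quadrants where the effects have opposite signs, while Tcf21 lies near the dashed line of equal effects, and 7 of the 13954 genes fall outside the axes at 6.5.

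Among the 17 genes, 11 had effects of opposite sign and 6 of the same sign in both settings. A call for a large difference favours opposite signs, so this count is no test. None of the 11 passed in both settings, and in some the effect in 1 setting was near 0, as for Mcm6 at 0.023 without infusion. By the separate tests, 8 passed with infusion only (Mgll, Mcm6, Lypd1, Bmncr, Gm38396, Cd74, Gal3st2b and Stk25), 7 without infusion only (Comp, Serpini1, Banp, Rcan2, Tmem176b, Cspg4 and Ubtd2), 1 in both (Tspan3) and 1 in neither (Fam124a). Mgll, Lypd1, Serpini1, Cspg4, Banp and Ubtd2 had positive differences, and the other 11 had negative ones. Bmncr, Gal3st2b and Gm38396 lie outside the rule for named genes, by level or by name, and were chosen after their values were seen.

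**Figure D2:**
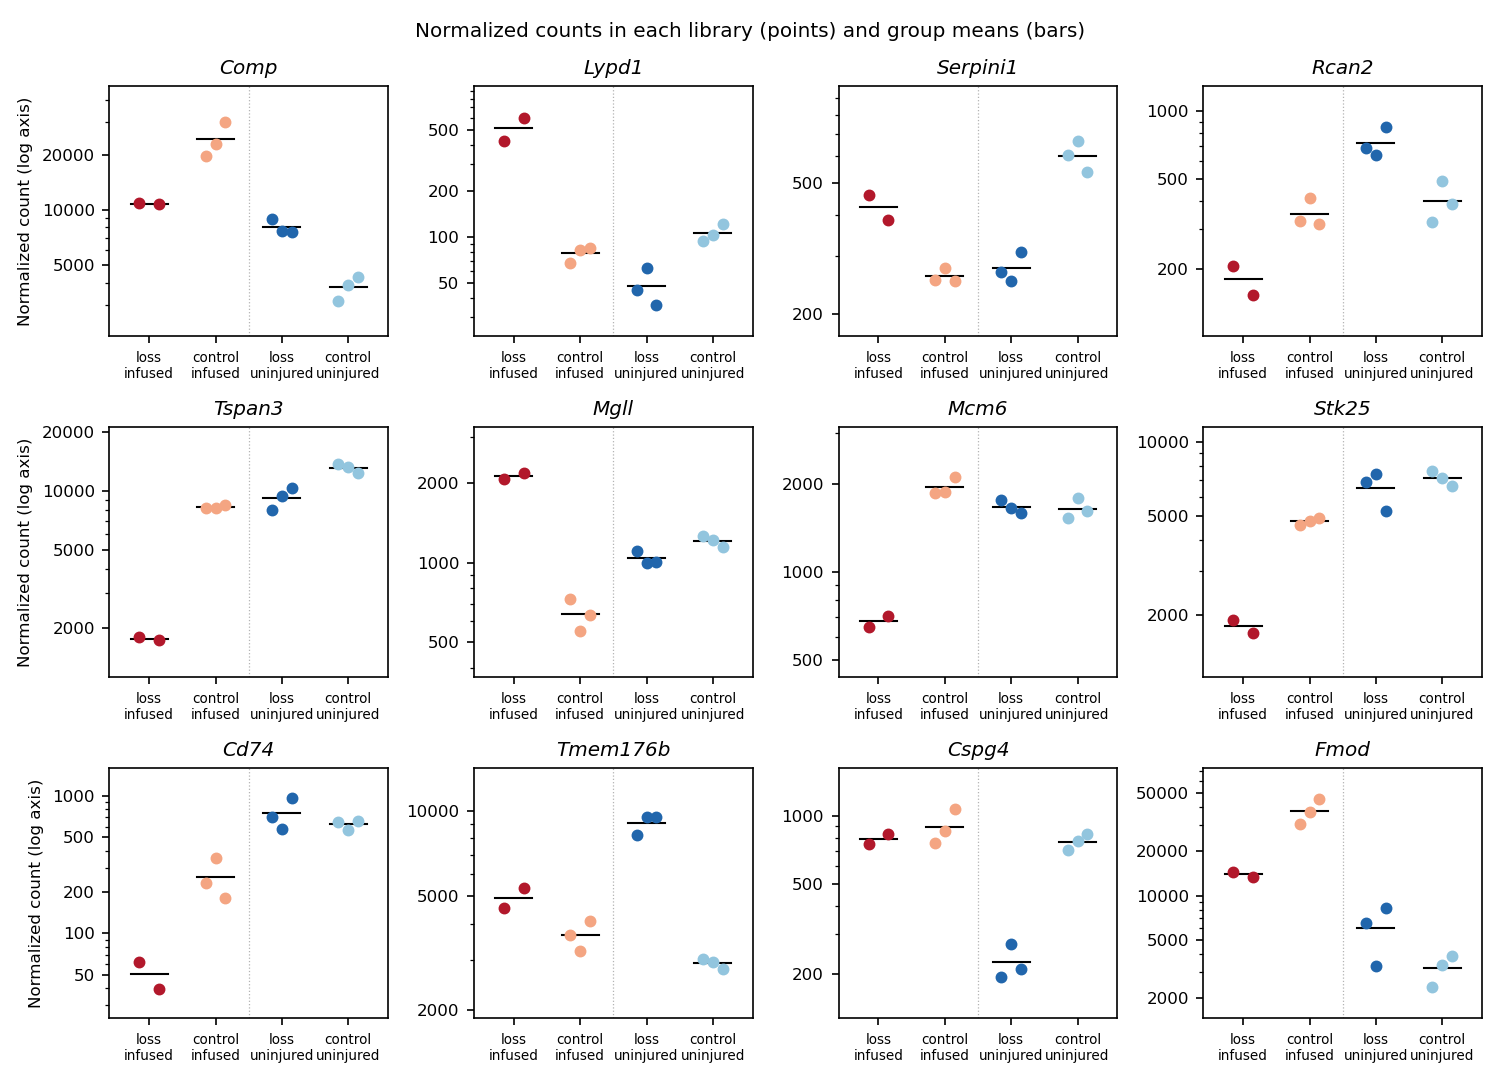
Normalized counts on log axes for 12 genes, with a point for each library and a bar at the mean of each group, in the order infused loss, infused control, uninjured loss and uninjured control. Comp, Lypd1, Serpini1 and Rcan2 (top row) have loss and control apart in both settings and in opposite order, while Fmod (bottom right) has the infused order of Comp and overlapping uninjured libraries.

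In 6 of the 17 genes, Comp, Lypd1, Serpini1, Rcan2, Mgll and Gm38396, the loss and control libraries did not overlap in either setting and the effects had opposite signs. The 17 were called from these same values, so this lack of overlap is a description and no further support. The share of such genes among all those tested was not counted. Comp encodes cartilage oligomeric matrix protein, a thrombospondin-family glycoprotein that binds collagens in cartilage and tendon (chromosome 8, 70373548 to 70382066). It held 10868 and 10735 normalized counts in the infused loss libraries, against 19610.4, 22778 and 30295 in the infused controls. The uninjured loss libraries held 8929, 7663 and 7544, against 3187, 3888 and 4273 in the uninjured controls. By the ratio of group means Comp was thus 2.24-fold lower after deletion with infusion (limma adjusted p = 0.0534) and 2.13-fold higher after deletion without it (adjusted p = 0.00319). The difference was -2.24 on the log2 scale (95% interval -2.74 to -1.73, SE 0.229, adjusted p = 0.00211), and it stayed past the threshold with each library left out, at -2.38 to -2.06.

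Lypd1 had the largest positive difference among the genes called. It encodes a membrane-anchored protein of the Ly6 family that binds nicotinic acetylcholine receptors in neurons (chromosome 1, 125867622 to 125913175). The infused loss libraries held 425 and 599.5 normalized counts, against 67.9, 81.9 and 85.2 in the infused controls, a mean 6.54-fold higher (adjusted p = 0.00377). In uninjured hearts the loss libraries held 44.9, 62.7 and 36.3, against 93.7, 104 and 122 in the controls, a mean 2.22-fold lower that did not pass on its own (adjusted p = 0.0842). Infused loss thus lay above, and uninjured loss below, every control of its setting. The difference was 3.84 (95% interval 3.01 to 4.68, SE 0.381, adjusted p = 0.00191), and 3.59 to 4.09 without 1 library.

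Serpini1 encodes neuroserpin, a secreted inhibitor of tissue-type plasminogen activator (chromosome 3, 75557493 to 75642523). It held 457 and 386 normalized counts in the infused loss libraries, against 254, 275 and 252 in the infused controls. In uninjured hearts the order was turned round, with 268, 252 and 309 in the loss libraries, against 604, 667 and 538 in the controls. Serpini1 was 1.62-fold higher after deletion with infusion (adjusted p = 0.104) and 2.18-fold lower without it (adjusted p = 0.00952), a difference of 1.81 (95% interval 1.36 to 2.27, adjusted p = 0.00483). Rcan2 encodes an inhibitor of the phosphatase calcineurin (chromosome 17, 43801352 to 44039516). Its values were 206 and 153 in the infused loss libraries, against 326, 411 and 316 in the infused controls. In the uninjured loss libraries they were 688, 638 and 850.03, against 324, 492 and 389 in the uninjured controls. Rcan2 loss lay below control with infusion (adjusted p = 0.101) and above it without (adjusted p = 0.0438), and the difference was -1.83 (95% interval -2.47 to -1.20, adjusted p = 0.0459). The call of Rcan2 was kept without infused loss library 1 and lost without any of the other 10 libraries, with adjusted p of 0.0328 to 0.183 and differences of -2.05 to -1.62.

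Because TCF21 and its partners bind E-boxes, the promoters of the 17 genes were searched for CAGCTG, an E-box that reads the same on both strands. Windows of 300 bases, 250 before to 50 after an annotated start, were matched by symbol for 14 of the 17 genes, with no window for Banp, Cd74 and Comp. The motif stood in a window of 3 of the 14 genes (21.4%), against 18.4% of 10653 tested genes with a window and 18.3% of 27025 genes in the table. The share among the called genes was near that of all genes. Counted by window, the motif stood in 3 of 23 windows of the called genes (13.0%), against 15.8% of 13748 windows of tested genes. Each of the 3 genes has 3 windows and holds the motif in 1 of them. The 3 windows are shown because they belong to Lypd1, Rcan2 and Tmem176b, whose differences were positive for Lypd1 and negative for the other 2, and CAGCTG is in capitals. They are RefSeq sequences on GRCm38.p6, written 5′ to 3′ on the strand of the gene, at chr1:125911338-125911637 (minus strand), chr17:43801601-43801900 (plus strand) and chr6:48841325-48841624 (minus strand).
Lypd1: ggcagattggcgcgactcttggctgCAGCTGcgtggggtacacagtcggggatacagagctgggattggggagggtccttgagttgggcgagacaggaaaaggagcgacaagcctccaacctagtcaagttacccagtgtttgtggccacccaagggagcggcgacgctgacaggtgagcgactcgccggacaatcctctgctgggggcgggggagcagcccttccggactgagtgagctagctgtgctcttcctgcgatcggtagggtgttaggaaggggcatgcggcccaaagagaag
Rcan2: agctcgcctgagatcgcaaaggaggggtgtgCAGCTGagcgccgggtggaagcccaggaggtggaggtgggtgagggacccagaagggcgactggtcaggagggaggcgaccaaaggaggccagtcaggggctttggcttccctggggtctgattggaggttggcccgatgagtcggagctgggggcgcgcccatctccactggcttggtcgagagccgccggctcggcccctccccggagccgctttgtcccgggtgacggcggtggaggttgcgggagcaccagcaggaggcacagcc
Tmem176b: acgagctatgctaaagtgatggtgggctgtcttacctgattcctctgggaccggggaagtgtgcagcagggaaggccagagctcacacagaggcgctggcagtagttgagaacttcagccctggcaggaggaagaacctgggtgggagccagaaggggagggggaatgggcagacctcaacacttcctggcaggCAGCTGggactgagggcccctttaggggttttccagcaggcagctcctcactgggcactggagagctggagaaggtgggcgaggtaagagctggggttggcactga
The motif begins 225 bases before the annotated start in Lypd1, 219 before it in Rcan2 and 56 before it in Tmem176b.

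The next genes differed mainly through their response in infused hearts. Tspan3, a tetraspanin of the cell membrane (chromosome 9, 56135884 to 56161070), had the smallest p of the table. It held 1791 and 1736 normalized counts in the infused loss libraries, against 8197, 8115 and 8495 in the infused controls, and was 4.69-fold lower (adjusted p = 0.000113). Uninjured loss libraries held 7957, 9416 and 10274, against 13610.5, 13157 and 12364 in the uninjured controls, and were 1.42-fold lower (adjusted p = 0.0345). Tspan3 fell in both settings with no overlap of the groups, and it fell further with infusion (difference -1.72, 95% interval -2.02 to -1.42, adjusted p = 0.000560, and -1.82 to -1.64 without 1 library). Mgll encodes monoacylglycerol lipase, which breaks down the endocannabinoid 2-arachidonoylglycerol (chromosome 6, 88724412 to 88828360). Its values were 2072 and 2183 in the infused loss libraries, against 730.5, 551 and 632 in the infused controls. In uninjured hearts they were 1111, 999 and 1009 in the loss libraries, against 1262, 1218 and 1144 in the controls. No groups overlapped, and loss was above control with infusion and below it without. Mgll rose by 1.75 on the log2 scale with infusion (adjusted p = 0.00315) and its effect without infusion was -0.22 (adjusted p = 0.254), a difference of 1.96 (95% interval 1.61 to 2.32, adjusted p = 0.000560, and 1.86 to 2.06 without 1 library).

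Mcm6 encodes a subunit of the MCM helicase that unwinds DNA at replication forks (chromosome 1, 128331575 to 128359705). The infused loss libraries held 647 and 708 normalized counts, against 1861, 1877 and 2114 in the infused controls, and Mcm6 was 2.88-fold lower (adjusted p = 0.00172). The uninjured loss libraries held 1769, 1659 and 1587, which overlapped the 1530.5, 1794 and 1617 of the uninjured controls. The difference was -1.55 (95% interval -1.85 to -1.24, adjusted p = 0.000851), and -1.61 to -1.48 without 1 library. Of 29 tested S-phase genes Mcm6 was the 1 called, and 16 had a positive and 13 a negative difference, at a median of 0.11, against 0.011 over all tested genes.

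Stk25, a protein kinase of the germinal centre kinase family (chromosome 1, 93620751 to 93654216), fell with infusion and overlapped without it. It held 1908 and 1696 normalized counts in the infused loss libraries, against 4633, 4790.3 and 4946 in the infused controls. Its uninjured values were 6905, 7414 and 5272 in the loss libraries, against 7597, 7149.5 and 6635 in the controls. Stk25 was 2.66-fold lower with infusion (adjusted p = 0.00141), and the difference was -1.27 (95% interval -1.66 to -0.89, adjusted p = 0.0174). It was lost without infused loss library 2, infused control 2, uninjured control 2 or uninjured control 3 (adjusted p = 0.10, 0.0584, 0.0643 and 0.0729). Fam124a (chromosome 14, 62555737 to 62608486), had values of 589 and 393 in the infused loss libraries, against 1155, 961 and 1123 in the infused controls. Its uninjured libraries held 2199, 2525 and 2519.7 with loss, against 2179.6, 2179 and 2260.1 in the controls. Neither effect passed alone (adjusted p = 0.0529 with infusion and 0.441 without), while the difference of -1.29 did (adjusted p = 0.0459). This call was kept without infused loss library 1 and lost without any of the other 10 libraries (adjusted p = 0.00342 to 0.157).

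Among the genes of lower level, Bmncr is a long non-coding RNA described in bone marrow stromal cells (chromosome 1, 133977281 to 134006449). The infused loss libraries held 5.92 and 2.55 normalized counts, against 59.9, 70.8 and 54.1 in the infused controls. In uninjured hearts the loss libraries held 225, 246 and 317, against 248, 239 and 204 in the controls, and overlapped them. The difference was -3.83 (95% interval -4.76 to -2.90, adjusted p = 0.00394). Its size depended on the processing, at -4.12 to -2.51 over the alternatives that kept all libraries. Gal3st2b, a galactose sulfotransferase gene, belongs to a family of closely related neighbours, so the assignment of reads among them is uncertain (chromosome 1, 93918437 to 93942645). It was listed at 0 in both infused loss libraries, against 34.5, 44.1 and 17.7 normalized counts in the infused controls. The uninjured loss libraries held 133, 135 and 102, overlapping the 119.8, 203 and 98.8 of the controls. Its fitted difference of -4.82 (adjusted p = 0.00983) depends on the pseudocount and was -1.89 with a pseudocount of 10, where it did not pass (adjusted p = 0.249). The predicted gene Gm38396 (chromosome 17, 17178911 to 17206397) held 121 and 105 in the infused loss libraries, against 372, 549.99 and 365 in the infused controls. Its uninjured values were 287, 389.8 and 277 in the loss libraries, against 268, 232 and 221 in the controls. Loss lay below control with infusion and above it without, and the difference was -2.28 (adjusted p = 0.0130). It was lost without infused loss library 2, uninjured control 2 or uninjured control 3 (adjusted p = 0.0727, 0.0567 and 0.0596).

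Cd74, the invariant chain that escorts MHC class II molecules, is a gene of antigen-presenting cells. It held 62.1 and 39.5 normalized counts in the infused loss libraries, against 234, 352 and 182 in the infused controls. The uninjured values were 705, 571 and 974 in the loss libraries, against 643, 568 and 656 in the controls. Cd74 was thus 5.04-fold lower with infusion (adjusted p = 0.0398) and overlapped without it, a difference of -2.53 (95% interval -3.41 to -1.65, adjusted p = 0.0459). The call was kept without infused loss library 1, infused control 3 or uninjured loss library 2, and lost without any of the other 8 (adjusted p = 0.0228 to 0.175).

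Markers of myeloid cells, a list that holds Cd74 itself, leaned the same way. Of 23 listed, 16 were tested, of which 13 had a negative and 3 a positive difference, at a median of -0.94 (-1.11 to -0.84 without 1 library). The sum over the list was 737 and 1012 in the infused loss libraries and 1224, 1434 and 1335 in the infused controls, and 2489.9, 2106 and 3346 in the uninjured loss libraries and 2168, 1885 and 2098 in the uninjured controls. Infused loss lay below every infused control, while 2 of the uninjured loss libraries lay above every uninjured control. Without Cd74, a choice made after the values were seen, 12 of 15 differences were negative at a median of -0.85. The sum was then 675 and 973 in the infused loss libraries and 990.4, 1082 and 1152 in the infused controls, and 1785, 1535 and 2372 in the uninjured loss libraries and 1525, 1317 and 1442 in the uninjured controls. The infused loss libraries still lay below the infused controls, and all 3 uninjured loss libraries lay above the uninjured controls. In each setting loss library 2 did so only narrowly. The MHC class II chains H2-Aa and H2-Ab1 had differences of -2.08 (95% interval -3.57 to -0.59, adjusted p = 0.332) and -1.82 (95% interval -2.89 to -0.75, adjusted p = 0.267). The third class II chain of the list, H2-Eb1, held 54.8 and 40.5 in the infused loss libraries, above the 28.9, 37.8 and 39.7 of the infused controls, and its difference was -0.15 (95% interval -1.15 to 0.85, adjusted p = 0.927). The macrophage gene Adgre1 was listed at 0 in 4 infused libraries, both loss libraries included, while Csf1r, another macrophage gene, held 70.4 and 112 in the infused loss libraries and 87.1, 128 and 143 in the infused controls, which overlapped. In these bulk samples fewer cells of a type and less RNA per cell cannot be told apart, and the part of myeloid RNA in the Cd74 difference was not tested.

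In 4 genes the difference came mainly from uninjured hearts. Tmem176b encodes a membrane protein with cation channel activity known from dendritic cells (chromosome 6, 48833811 to 48845948). It held 4548 and 5359 normalized counts in the infused loss libraries, against 3667, 3208 and 4104 in the infused controls. In uninjured hearts the loss libraries held 8233, 9487 and 9496, against 3015, 2942 and 2778 in the controls. Loss lay above control in both settings, 1.35-fold higher with infusion (adjusted p = 0.201) and 3.12-fold higher without it (adjusted p = 4.22e-05). The difference was -1.20 (95% interval -1.54 to -0.85, adjusted p = 0.0130), and it was lost without uninjured control 2 or 3 (adjusted p = 0.0546 and 0.0596).

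Cspg4 encodes the NG2 proteoglycan, a surface protein of pericytes and other mesenchymal cells (chromosome 9, 56865104 to 56899870). Its values with infusion were 755 and 834 in the loss libraries, overlapping the controls at 760.4, 863 and 1070.3. Without infusion they were 195, 272 and 211 in the loss libraries, against 707, 774 and 832 in the controls. Without infusion Cspg4 was 3.42-fold lower after deletion (adjusted p = 0.00137) and its log2 effect with infusion was -0.16 (95% interval -0.54 to 0.22), a difference of 1.62 (95% interval 1.10 to 2.14, adjusted p = 0.0286). The call was lost without infused loss library 2, infused controls 1 or 2, or any uninjured control (adjusted p = 0.132, 0.0563, 0.0891, 0.0665, 0.0933 and 0.117). Of 14 tested mural markers, 12 had a positive and 2 a negative difference, at a median of 0.34 (0.29 to 0.67 without 1 library), and Cspg4 was the 1 called. Ndufa4l2 had a difference of 0.84 (95% interval 0.39 to 1.30, adjusted p = 0.244) and Higd1b of 1.15 (95% interval 0.0087 to 2.29, adjusted p = 0.429). The summed level of the list was 32015 and 35929 in the infused loss libraries and 35501, 34429 and 31093 in the infused controls, which overlapped. It was 42143, 44709 and 42958 in the uninjured loss libraries, below the 49431, 53302 and 52203 of the uninjured controls. Pdgfrb and Steap4 carried most of this sum in every library, so it says little of the other members. Pdgfrb overlapped in both settings, with 18816, 23723 and 20111 in the uninjured loss libraries and 20621, 22009 and 22968 in the uninjured controls. The part of mural RNA in the Cspg4 difference was not tested.

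Banp encodes a nuclear protein that binds unmethylated CpG-rich promoters (chromosome 8, 121947972 to 122029260). It held 407 and 739 normalized counts in the infused loss libraries, against 418, 416 and 489 in the infused controls, with overlap. Uninjured values were close together, at 342, 342 and 343 in the loss libraries, against 892, 937 and 935 in the controls. Banp was 2.69-fold lower without infusion (adjusted p = 0.000607), and the difference was 1.74 (95% interval 1.15 to 2.34, adjusted p = 0.0453). That call was kept without infused loss library 1 or 2 and lost without any of the other 9 libraries (adjusted p = 0.00229 to 0.146). Ubtd2, a small protein with a ubiquitin-like domain (chromosome 11, 32455370 to 32518709), held 2583 and 2777 with infusion in the loss libraries, against 2746, 2685 and 2693 in the controls. It held 2369, 2238 and 2321 without infusion in the loss libraries, against 3493, 3609.7 and 3552 in the controls. The infused groups overlapped and the uninjured ones did not, and the difference of 0.61 (adjusted p = 0.0476) was the smallest in size of the 17. It was kept without infused loss library 1 and lost without any of the other 10 libraries (adjusted p = 0.0487 to 0.206).

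**Figure D3:**
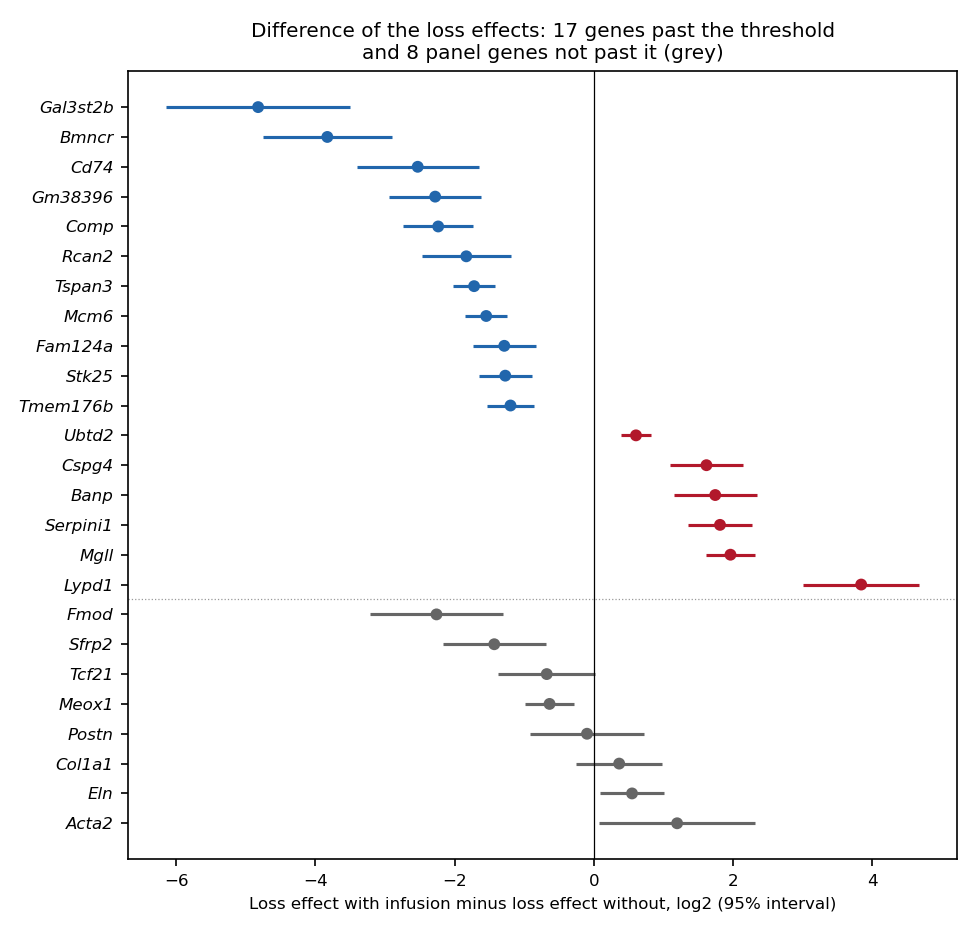
Difference of the log2 loss effects, with infusion minus without (horizontal axis), with 95% intervals from limma, for the 17 genes past the threshold in blue (negative) and red (positive) and for 8 panel genes not past it in grey. Fmod at -2.26 and Sfrp2 at -1.43 have intervals away from 0 that did not pass after adjustment over 13954 genes.

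Of the 17 genes, 5 lie on chromosome 1, which holds 5.76% of the 13534 tested genes with a GENCODE vM21 position on GRCm38. They are Stk25, Gal3st2b, Lypd1, Mcm6 and Bmncr, and all of them passed with infusion and not without it. Of the 119 genes that passed with infusion, 16 lie on chromosome 1 (2.05% of its tested genes) and 14 on chromosome 17 (1.99%), against 0.853% of all tested genes. Bmncr ends 30.8 kb before the start of Fmod, which also passed with infusion. These positions are a description of the called genes, and no test was made of them.

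**Figure D4:**
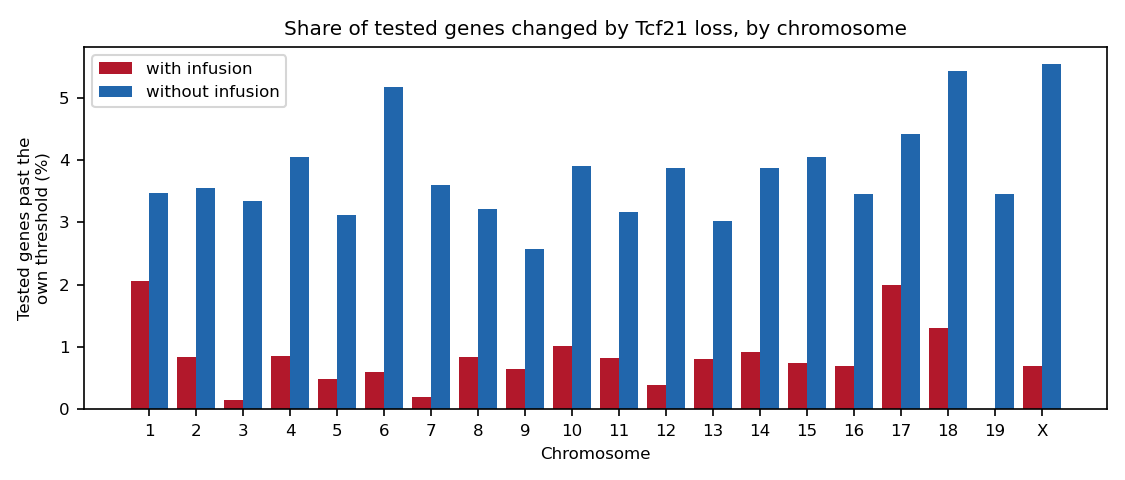
Percent of the tested genes of each chromosome (horizontal axis) that passed the separate test of the loss effect with infusion (red) and without infusion (blue). With infusion, chromosome 1 at 2.05% and chromosome 17 at 1.99% are the highest red bars and chromosome 19 has none.

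Fibromodulin (Fmod), a small leucine-rich proteoglycan that steers collagen fibril assembly, had a difference as large as that of Comp that did not pass the test. It held 14535 and 13433 normalized counts in the infused loss libraries, against 30836, 36817 and 45490.5 in the infused controls. In uninjured hearts the loss libraries held 6494, 3326 and 8296, against 2373, 3362 and 3859 in the controls. Fmod fell with infusion (2.70-fold lower, adjusted p = 0.0236), whereas the uninjured groups overlapped, and its difference was -2.26 (95% interval -3.21 to -1.31, adjusted p = 0.107). Of the 36 tested matrix glycoproteins and proteoglycans, 25 had a negative and 11 a positive difference, at a median of -0.26, with a median effect of -0.13 with infusion and 0.17 without. Over all tested genes 48.5% of differences were negative. Comp was the 1 called. Smoc2, a matricellular calcium-binding protein, had a difference of -1.07 (95% interval -2.02 to -0.12, adjusted p = 0.387), with overlapping groups in both settings.

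Genes of activated fibroblasts had a positive median effect of deletion in both settings. The 23 tested members had a median effect of 0.29 with infusion and 0.55 without, and 16 had a negative and 7 a positive difference, at a median of -0.17 (-0.34 to -0.096 without 1 library). Comp was the 1 member called. Sfrp2, a secreted Wnt modulator, held 16183 and 27272 normalized counts in the infused loss libraries, which spanned the 21789, 23829 and 23311 of the infused controls. Uninjured loss libraries held 6848, 7210.03 and 11995, all above the 3156, 3065 and 4074 of the uninjured controls. Sfrp2 was 2.53-fold higher without infusion (adjusted p = 0.0159), and the difference was -1.43 (95% interval -2.17 to -0.69, adjusted p = 0.226). Meox1, a homeobox factor of activated fibroblasts, had a log2 effect of -0.02 with infusion and 0.62 without (adjusted p = 0.937 and 0.0284), and Angptl7, a secreted angiopoietin-like protein, of 0.086 with infusion and 1.82 without (adjusted p = 0.909 and 0.00105). Neither difference passed, at -0.64 (adjusted p = 0.261) and -1.74 (adjusted p = 0.173). Postn, the matricellular protein periostin, had a difference of -0.099 (95% interval -0.92 to 0.72, adjusted p = 0.944) whose sign turned without some libraries (-0.34 to 0.085).

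No collagen chain was called. The 25 tested collagen chains had 14 negative and 11 positive differences at a median of -0.025, and Col1a1, the main fibrillar chain, had a difference of 0.36 (95% interval -0.25 to 0.98, adjusted p = 0.649). Col28a1, a minor chain, held 92 and 119 normalized counts in the infused loss libraries, against 51.6, 82.2 and 131 in the infused controls, and 41.9, 19 and 27.9 in the uninjured loss libraries, against 0.959, 3.34 and 1.14 in the uninjured controls. It was clear of the controls without infusion and overlapped them with it, and its difference of -3.12 did not pass (adjusted p = 0.215). The 28 tested genes of collagen processing had a median difference of 0.05, with the prolyl hydroxylase P4ha2 at 0.79 (adjusted p = 0.250). The 25 matrix proteases and inhibitors had a median of -0.10, with Mmp14, a membrane-bound collagenase, at 0.52 (adjusted p = 0.321) and Adamts1, an aggrecanase, at -0.71 (adjusted p = 0.293). The 21 cartilage and tendon genes had a median of -0.028, with Comp called and Alpl, the tissue-nonspecific alkaline phosphatase, at -1.37 (adjusted p = 0.267).

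In the elastic fibre, elastin itself was lower after deletion in both settings. Eln held 18408 and 20471 normalized counts in the infused loss libraries, against 34559, 34699.6 and 30602 in the infused controls. It held 9613, 9021 and 12369 in the uninjured loss libraries, against 25104, 30097 and 22280.1 in the uninjured controls. No groups overlapped, and Eln was 1.71-fold lower with infusion (adjusted p = 0.0529) and 2.50-fold lower without (adjusted p = 0.00294), with a difference of 0.55 (95% interval 0.094 to 1.00, adjusted p = 0.376). Of the 16 tested members, 11 had a negative and 5 a positive difference, and none was called. Adamtsl2, which binds latent TGF-beta-binding proteins, fell with infusion (log2 effect -1.07, adjusted p = 0.00659) and had an effect of -0.34 without it (adjusted p = 0.159), a difference of -0.73 (adjusted p = 0.227). The latent TGF-beta-binding protein Ltbp1 had a difference of -0.54 (adjusted p = 0.306).

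Resting and contractile genes leaned in opposite directions, with no member called in either list. Of 28 tested genes of resting and adventitial fibroblasts, 25 had a negative and 3 a positive difference, at a median of -0.59 (-0.92 to -0.26 without 1 library). The median log2 value of the list against the control mean was -0.21 and -0.80 in the infused loss libraries and 0.58, -0.063 and -0.52 in the infused controls, which overlapped. It was 0.031, 0.043 and 0.085 in the uninjured loss libraries and 0.087, -0.022 and -0.05 in the uninjured controls. The lipid transporter Abca8a had a difference of -0.48 (95% interval -0.90 to -0.055, adjusted p = 0.384) and the dipeptidase Dpep1 of -1.05 (95% interval -1.98 to -0.12, adjusted p = 0.387).

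Of 27 tested contractile genes of myofibroblasts, 24 had a positive and 3 a negative difference, against 51.5% positive over all tested genes, at a median of 0.25 (0.12 to 0.34 without 1 library), and 5 had an unadjusted p below 0.05, all positive, against 5.78% of all tested genes. The list lay at 0.191 and 0.284 in the infused loss libraries and at -0.191, -0.021 and 0.192 in the infused controls, which overlapped. It lay at -0.040, 0.035 and 0.020 in the uninjured loss libraries and at -0.076, 0.023 and 0.0072 in the uninjured controls. Infused control 1 had the lowest value of this list and, at 0.58, the highest of the resting list. Acta2, smooth muscle actin, held 8728 and 14018 normalized counts in the infused loss libraries, both above the 2804, 4365 and 8281 of the infused controls. The uninjured loss libraries held 1764, 1517 and 2603, overlapping the 1714, 2228 and 1643 of the uninjured controls. Acta2 was 2.21-fold higher with infusion, which did not pass (adjusted p = 0.244), and its difference was 1.20 (95% interval 0.076 to 2.32, adjusted p = 0.403). Tpm1, a tropomyosin that stabilises actin filaments, came closest to the threshold in this list. Its values were 5539.7 and 7282 in the infused loss libraries, against 4217, 4339.6 and 4723 in the infused controls. They were 4474, 4229 and 4063 in the uninjured loss libraries, against 5273, 5434 and 5336 in the uninjured controls. Tpm1 fell without infusion (log2 effect -0.33, adjusted p = 0.0450) and had an effect of 0.52 with it (adjusted p = 0.159), a difference of 0.85 (95% interval 0.53 to 1.17, adjusted p = 0.0641). Tpm2 had a difference of 0.75 (adjusted p = 0.294) and the fibronectin receptor chain Itga5 of 0.47 (adjusted p = 0.335).

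**Figure D5:**
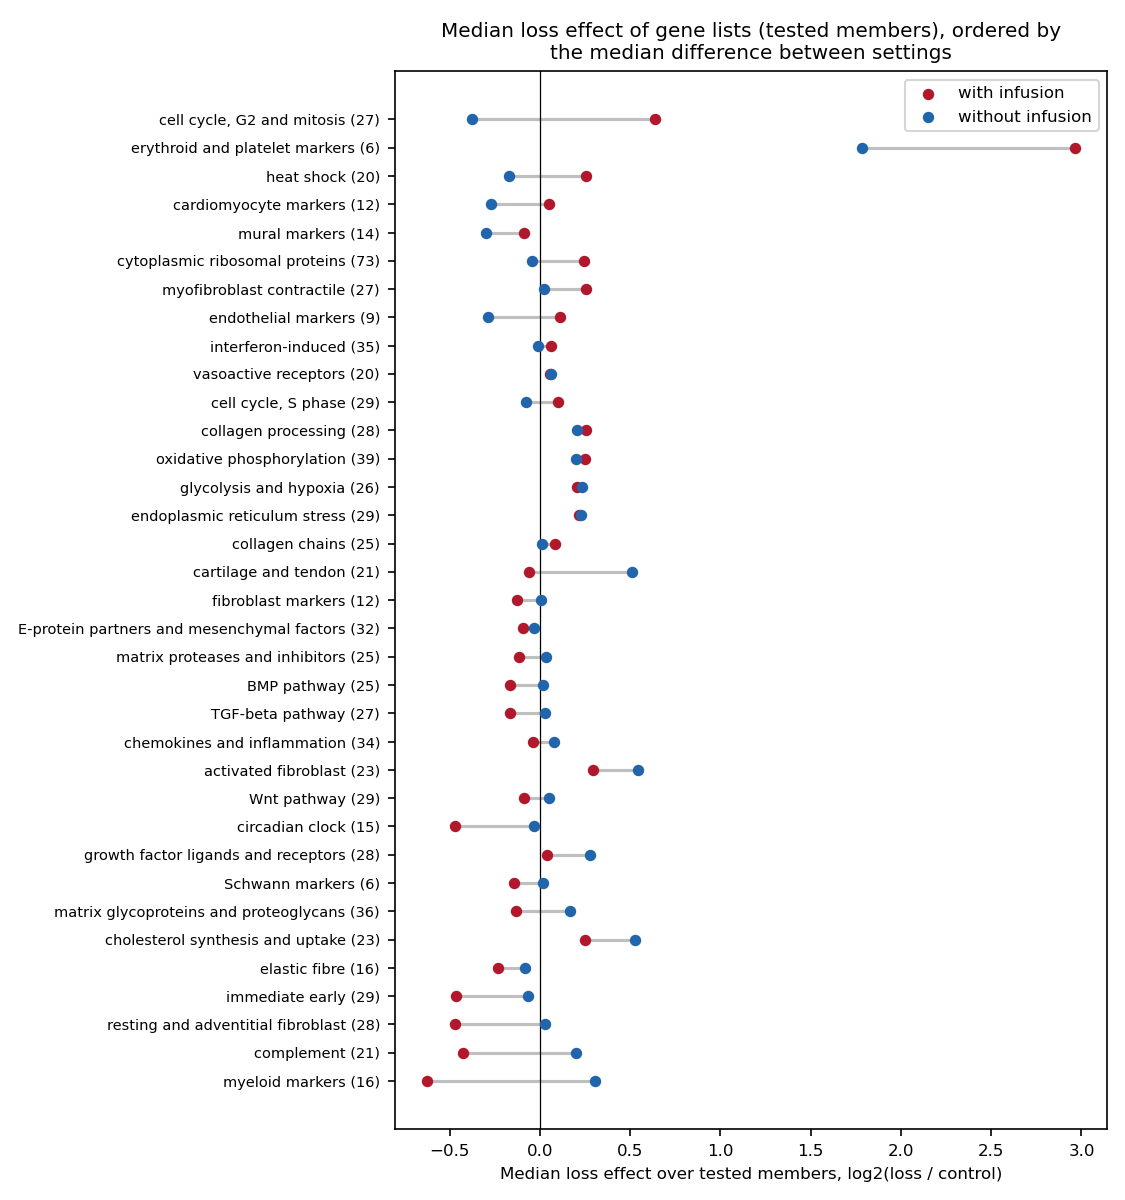
Median log2 loss effect over the tested members of each gene list (number tested in parentheses) with infusion (red) and without infusion (blue), ordered by the median difference. Resting fibroblast genes lie at -0.47 with infusion and 0.029 without, and contractile genes at 0.25 with infusion and 0.025 without.

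No gene of the signalling lists was called. In the TGF-beta pathway, the main inducer of myofibroblasts, 19 of 27 tested genes had a negative difference (median -0.15), among them the receptor Tgfbr2 at -0.43 (95% interval -0.72 to -0.15, adjusted p = 0.300) and the signal carrier Smad3 at -0.49 (95% interval -0.90 to -0.083, adjusted p = 0.378). In the BMP pathway the median over 25 genes was -0.10, with the ligand Bmp4 at -0.81 (adjusted p = 0.285) and Smad1 at 0.48 (adjusted p = 0.267). Over 29 Wnt pathway genes the median was -0.17. Frzb, a secreted Wnt antagonist, had a difference of -0.56 (adjusted p = 0.332). Growth factors and their receptors had a median of -0.23 over 28 genes, with Fgf7 at -1.05 (adjusted p = 0.279) and the fibroblast receptor Pdgfra at -0.65 (adjusted p = 0.403). Among 20 receptors and enzymes of vasoactive signals, to which the infused agents belong, 10 had a positive and 10 a negative difference. The endothelin receptor Ednra held 3001 and 2990.5 normalized counts in the infused loss libraries, against 2572, 2738 and 2272 in the infused controls. Its uninjured values were 833, 942 and 698 in the loss libraries, against 1096, 1130.4 and 1106 in the controls. Loss lay above control with infusion and below it without, but the difference of 0.69 did not pass (adjusted p = 0.227), nor did that of the angiotensin-converting enzyme Ace at -0.61 (adjusted p = 0.313). The 32 E-protein partners and mesenchymal transcription factors had a median of -0.053, with Twist1 at 0.51 (adjusted p = 0.310) and Snai1 at 0.60 (adjusted p = 0.321).

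Stress-response lists leaned apart, again with no call. Of 29 tested immediate early genes, which respond within minutes to growth factors and to handling of cells, 24 had a negative and 5 a positive difference, against 48.5% negative over all tested genes (median -0.41, and -0.53 to -0.24 without 1 library). At an unadjusted p below 0.05 there were 10, all negative, against 5.8% of all tested genes past it with a negative difference. The list lay at -0.34 and -0.60 in the infused loss libraries, below the infused controls at 0.20, -0.014 and -0.18. It lay at 0.040, -0.077 and -0.16 in the uninjured loss libraries, overlapping the uninjured controls at -0.051, -0.19 and 0.25. Its members share these libraries and are not separate observations. Atf3 had a difference of -1.22 (95% interval -1.97 to -0.48, adjusted p = 0.271), Maff of -0.87 (adjusted p = 0.296) and Myc of -0.78 (adjusted p = 0.321). Of 20 heat shock genes, 17 had a positive difference, at a median of 0.47 that was 0.12 to 0.79 without 1 library and lowest without infused loss library 2. The list lay at -0.075 and 0.48 in the infused loss libraries and at -0.018, -0.087 and 0.052 in the infused controls. It lay at 0.03, -0.24 and -0.32 in the uninjured loss libraries and at -0.035, -0.032 and 0.084 in the uninjured controls. The chaperone Hspa8 fell without infusion (log2 effect -0.66, adjusted p = 0.00952) and had an effect of -0.032 with it, a difference of 0.63 (adjusted p = 0.339). Its co-chaperone Dnaja1 had a difference of 0.58 (adjusted p = 0.321), and Chordc1, an HSP90 partner, of 0.71 (adjusted p = 0.317). Over 29 genes of endoplasmic reticulum stress the median was 0.009, but it was -0.27 to 0.35 without 1 library.

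Of 73 tested cytoplasmic ribosomal protein genes, 66 had a positive and 7 a negative difference, against 51.5% positive over all tested genes, at a median of 0.26 (0.17 to 0.38 without 1 library), and 20 had an unadjusted p below 0.05, all positive, against 5.78% of all tested genes past it with a positive difference. Such genes have many pseudogene copies, so the assignment of their reads is uncertain. The list lay at 0.21 and 0.30 in the infused loss libraries and 0.18, -0.19 and 0.0083 in the infused controls, and at 0.00051, -0.085 and 0.014 in the uninjured loss libraries and 0.016, -0.019 and 0.0086 in the uninjured controls. Rps7 had a difference of 0.69 (95% interval 0.28 to 1.10, adjusted p = 0.267) and Rpl11 of 0.44 (95% interval 0.17 to 0.71, adjusted p = 0.285). Oxidative phosphorylation genes had a median difference of 0.03 over 39 members, and glycolysis and hypoxia genes of 0.01 over 26, with median effects of 0.21 with infusion and 0.23 without for glycolysis and hypoxia. The 23 genes of cholesterol synthesis and uptake had median effects of 0.25 with infusion and 0.53 without, and a median difference of -0.29 that was -0.41 to 0.022 without 1 library.

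Cell cycle genes of G2 and mitosis had the largest median difference of the lists that are not markers of another cell, 1.05 over 27 genes, 26 of them positive. None had an unadjusted p below 0.05. Relative to the control mean, the list lay at 0.15 and 1.18 in the infused loss libraries and at -1.11, 0.25 and 0.84 in the infused controls. It lay at -0.36, -0.38 and 0.42 in the uninjured loss libraries and at -0.18, 0.42 and -0.27 in the uninjured controls. Loss overlapped control in both settings, infused control 1 had the lowest value, and the median was 0.55 to 1.65 without 1 library. The spindle factor Tpx2 had a difference of 1.58 (95% interval -0.27 to 3.42, adjusted p = 0.502). Circadian clock genes had a median of -0.22 over 15 genes (-0.69 to -0.051 without 1 library).

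Among immune genes, complement components had a median difference of -0.66 over 21 tested genes, 18 of them negative (-0.79 to -0.48 without 1 library). The list lay at -0.38 and -0.43 in the infused loss libraries, below the infused controls at 0.24, -0.11 and -0.27. In the uninjured loss libraries it lay at 0.20, 0.0052 and 0.40, against 0.035, -0.0031 and -0.017 in the uninjured controls. No member was called. Chemokines and inflammatory genes had a median of -0.16 over 34 genes, with the neutrophil chemokine Cxcl5 at -2.30 (95% interval -3.47 to -1.14, adjusted p = 0.215). Interferon-induced genes had a median of 0.12 over 35. The interferon-induced chemokine Cxcl9 was listed at 0 in all 3 uninjured loss libraries, against 26.9, 13.0 and 34.3 normalized counts in the uninjured controls. With infusion it held 62.2 and 30.1 in the loss libraries and 51.0, 64.5 and 39.6 in the controls, which overlapped. Its fitted difference of 4.36 rests on those zeros and did not pass (adjusted p = 0.0641).

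Some markers of other cell types were among the genes at 0 in the uninjured loss libraries. Of 9 tested endothelial markers, 5 had a positive and 4 a negative difference (median 0.22). The endothelial receptor Tie1 held 22.6 and 23.2 normalized counts in the infused loss libraries, against 7.01, 13.9 and 15.4 in the infused controls, and 0, 0.930 and 0 in the uninjured loss libraries, against 5.56, 37.6 and 29.8 in the uninjured controls (difference 4.93, adjusted p = 0.173). Cdh5, which defines endothelial cells, was listed at 0 in all 3 uninjured loss libraries and held 10.2, 12.9 and 11.1 in the uninjured controls. The summed endothelial level overlapped, at 23162, 26702 and 22338 in the uninjured loss libraries and 23637, 24115 and 24184 in the uninjured controls, but Tek and Eng carried most of it. Without those 2 members, a choice made after the values were seen, the other 11 summed to 857, 528 and 572 in the uninjured loss libraries, all below the 886, 1014 and 868 of the uninjured controls. With infusion the 11 summed to 538 and 557 in the loss libraries, both above the 466, 433 and 427 of the controls. Esam and Fabp4 carried most of the sum of the 11 in the uninjured controls, and single members went both ways. Esam held 264, 216 and 206 in the uninjured loss libraries, below the 371, 405 and 329 of the uninjured controls. Eng held 9742, 12695 and 9961 in the uninjured loss libraries, above the 7471, 7755 and 7884 of the uninjured controls. Pecam1 overlapped in that setting. Globin RNA separated loss from control with infusion: Hba-a1, the red cell alpha globin, held 152 and 52.0 in the infused loss libraries, against 2.96, 4.06 and 6.91 in the infused controls, and rose (log2 effect 4.06, adjusted p = 0.0380). It held 392, 82.2 and 3.07 in the uninjured loss libraries, overlapping the 5.25, 6.35 and 9.25 of the uninjured controls (log2 effect 2.71, adjusted p = 0.300), and the difference was 1.34 (adjusted p = 0.816). The 6 tested erythroid and platelet markers had a median difference of 1.01 that changed sign without 1 library (-0.15 to 2.34). The 12 cardiomyocyte markers had a median of 0.39 and the 6 Schwann markers of -0.24, with Cdh19 at -1.05 (adjusted p = 0.227). The 12 fibroblast markers had a median of -0.049, and 1 lymphoid marker and no mesothelial marker was tested. The part of these cell types in the differences was not tested.

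The 17 genes were also read in the gain arm of the series, which compares 2 infused libraries with TCF21 overexpressed (Pdgfra-creERT:Col1a1-TCF21) with 3 infused controls (Pdgfra-creERT). The values are given as a description, with no test. Comp had a log2 effect of -1.67 with gain, Rcan2 of -1.28, Cd74 of -0.72 and Fam124a of -0.64, and all 4 were also lower in the infused loss libraries than in their controls. Mcm6 had an effect of 0.54, and the other 12 genes lay between -0.53 and 0.48. Of these, Cspg4 at -0.53, Bmncr at -0.52 and Gal3st2b at -0.51 also had negative effects of infused loss. Gm38396 at 0.48 and Mcm6 had negative effects of infused loss too, opposite in sign to their gain effects. Lypd1 and Tspan3, which had large effects of loss with infusion, had gain effects of -0.47 and -0.058.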

How the data were processed

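Expression was measured by RNA-seq in flow-sorted mouse cardiac fibroblasts. Per the labels' protocols, total RNA was prepared with the MiRNeasy micro kit and libraries with the SMART-seq V4 kit, and the submitters' processing notes name kallisto, DESeq2 and GRCm38, without versions. The deposited values are a signal per gene, normalized counts that the authors made separately for each of 3 tables, so raw depth is unknown and gene levels are not per length. A normalized count can carry reads of a pseudogene or a close paralogue, and of an overlapping or antisense gene, since strandedness is not given in the sources used here.

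A pseudocount of 1 was added before taking log2, and tests were made with limma 3.58.1 (R 4.3.3, variance trend, two-sided, Benjamini-Hochberg adjustment over all genes tested, threshold 0.05). The difference of effects was a contrast over 4 group means in 11 libraries, for genes averaging at least 10 in both loss tables. Each effect was also fitted within its own table over all genes averaging at least 10 there. Fold changes on this scale understate the change of low genes. Folds given as "fold higher" or "fold lower" are ratios of group means of the deposited values.

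Named genes were a panel of 11, the called genes averaging at least 50 in both tables and without a predicted name, up to 15 a direction, and from every list the members of smallest p for the difference, 3 at most. Col28a1, Cxcl9, Tie1, Tek, Eng, Esam, Pecam1, H2-Eb1, Csf1r, Cdh5 and Hba-a1 are also members of those lists. The members and the 37 lists were chosen with earlier results of these data known. List values are medians and counts, without a test, and the value of a list in a library is the median of its members' log2 values minus the mean of the controls of that setting. The panel gene Mmp3 was not analysed here. On simulated data for the difference over 13954 genes, 49% of changes of 1 and 76% of changes of 2 on the log2 scale were recovered. There were 10 false among 135 calls and 0 errors of sign. The simulated noise was normal on the log2 scale, independent, and of the same spread in all groups for a gene. These rates therefore hold for data that meet the assumptions of the test, and need not hold for the libraries here. Alternatives covered the pseudocount, the filter, scaling within tables, the variance model, library weights, a replicate block, the genes set aside, a spread of its own for each table, and each library left out in turn.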

Additional observations from a re-analysis of the deposited data

Results flagged for a closer look

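In 17 genes the effect of deletion itself differed between infused and uninjured hearts in the limma test of the difference, which is why each is listed for a closer look. The value given is the effect with infusion minus that without, on the log2 scale. Among genes of the cell surface and matrix, the difference was -2.24 for Comp, -1.72 for Tspan3, 3.84 for Lypd1, -1.20 for Tmem176b, 1.62 for Cspg4 and -2.53 for Cd74. Among enzymes, inhibitors and regulators it was 1.96 for Mgll, 1.81 for Serpini1, -1.83 for Rcan2, -1.27 for Stk25, -1.55 for Mcm6, 1.74 for Banp and -4.82 for Gal3st2b. For the remaining genes it was -3.83 for Bmncr, -2.28 for Gm38396, -1.29 for Fam124a and 0.61 for Ubtd2. The 8 genes Bmncr, Comp, Gal3st2b, Lypd1, Mcm6, Mgll, Serpini1 and Tspan3 stayed past the threshold without each of the 11 libraries in turn, and the other 9 did not.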

How the results depend on the processing

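The 17 genes with a different effect became 35 with library weights, 71 with a replicate block and 368 with a spread of its own for each table and a normal reference, and 8 to 43 without 1 library. The other alternatives gave 15 to 22. Of the 17, 6 were called in every alternative (Comp, Lypd1, Mcm6, Mgll, Serpini1 and Tspan3). Gal3st2b was lost with a pseudocount of 10, and Bmncr was not tested at a mean of at least 50. Without a variance trend 9 of the 17 were kept. The loss effect in infused hearts passed in 135 genes, and in 72 without a variance trend, 308 with library weights, 1462 with a replicate block, and 32 to 175 without 1 library. The loss effect in uninjured hearts passed in 557, and in 94 without a variance trend, 949 with library weights, 227 with a replicate block, and 88 to 875 without 1 library. The cause of these shifts was not tested. The deviations of same-numbered libraries from their group means correlated at 0.19 and -0.053 with infusion and 0.019, -0.053 and -0.063 without, and the numbers were not taken as pairs. Only infused loss library 1 deviated most like its same-numbered control. With 2 infused loss libraries, the deviations of 1 mirror those of the other, so pairing with infusion is not settled by these values. The block kept 15 of the 17 genes and lost Rcan2 and Ubtd2. The sign of the Postn difference, -0.099, turned with the replicate block (0.047) and without 1 library (-0.34 to 0.085). When the set-aside genes were kept, 21 genes were called, among them Fbln2 (-3.51), Mllt6 (4.62), Gm6139 (-6.51) and Atp6v0c-ps2 (-6.24), whose levels differ between the tables. Of 35 list medians, 20 kept their sign without each library in turn.

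The infused loss group has 2 libraries, so a fit without either leaves 1, which is assumed to vary like the other groups. The deposited values carry no read counts, so counting error enters the intervals only through the scatter among libraries. Infusion, table and the time of collection cannot be told apart within the difference of effects.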
